A study of Mus musculus with 6 samples.

Results

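The p53 target genes examined here are 10 genes, chosen by name as well-established direct targets of the transcription factor p53: Cdkn1a, Mdm2, Zmat3, Eda2r, Trp53inp1, Ccng1, Phlda3, Sesn1, Bax and Aen. They are 10 of the 55414 gene identifiers in the deposited tables, and all 10 were among the 13115 genes with enough counts to be tested. RNA was sequenced from untreated pancreatic acinar cells of adult mice, with 3 control libraries of genotype Pdx1Cre;Trip12+/+ and 3 knockout libraries of genotype Pdx1Cre;Trip12fl/fl. Both groups carry the Cre recombinase driven by the Pdx1 promoter, which is active in the progenitors of pancreatic epithelium, so that leukocytes, vessels and stroma are not its target. The titles call the libraries biological replicates 1 to 3 of each group, without saying what a number stands for or whether each came from 1 animal. If they did not come from separate animals, the p-values measure only the spread between these preparations.

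p53 is a transcription factor that the ubiquitin ligase MDM2 keeps scarce in unstressed cells, and that accumulates after DNA damage and other stress. It then switches on genes that stop the cell cycle, favour cell death, adjust metabolism and restrain p53 itself, with Mdm2 among them. TRIP12 is a ubiquitin ligase known to act on ARF, a product of the Cdkn2a gene that holds MDM2 back. The comparison of knockout with control asks how the targets differ in acinar cells when Trip12 has been deleted.

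The targets did not all move together. Zmat3 rose, to 2.21 times its control mean, and was the only member called at an adjusted p under 0.05 over all tested genes in edgeR's quasi-likelihood test (a count-based test, with Benjamini-Hochberg adjustment). With the replicate number as a block in the same test, which compares each knockout with the control of the same number, 4 members were called, all higher: Zmat3, Eda2r, Trp53inp1 and Cdkn1a. That pairing was taken from correlations between these same libraries and not from the labels. In pairs 2 and 3 the control was female and the knockout male by Xist counts, given below, which the block does not remove. The share called over all tested genes was 0.945% without the block (0.465% higher in knockout, 0.48% lower) and 5.99% with it (3.4% higher, 2.58% lower). Mdm2, Ccng1, Aen and Sesn1 were not called in any of 21 fits of these data. Bax was called only where library totals set the scale, without and with the block, and Phlda3 only with the block on library totals, fits in which 11.6% and 24.8% of all tested genes were called.

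Several features of the libraries bear on every value below. Gene counts ran from 31019500 to 34041901 per library. Normalised values are counts per 1000000 counts (CPM) on library sizes adjusted by TMM factors, which offset the large share taken by digestive enzymes. Trip12 averaged 25.9 CPM ± 3.36 (SD, n = 3) among controls and 14.0 CPM ± 0.917 among knockouts, with no overlap. Its log2 fold change was -0.89 (SE 0.14, adjusted p 0.0256 by edgeR with Benjamini-Hochberg adjustment). That call was lost in 5 of 11 fits that changed the processing and in 6 of 9 that left out a library or a pair. The counts cover the whole gene and do not show which exons remain, and the annotation places Fbxo36 and other gene models across it. The 8 acinar markers summed to between 430000 and 584000 CPM in control and between 366000 and 377000 CPM in knockout, lower in every knockout library, and the part of that gap in the values below was not tested. The 4 adipocyte markers summed to 8.85, 3.41 and 3.49 CPM for controls and to 17.2, 4.57 and 5.66 CPM for knockouts, higher in the knockout of every pair. Nearly all of that sum was Fabp4, and Adipoq and Lep, the defining adipocyte hormones, were at 0 in every library. Islet markers, 6 genes, summed to 395, 409 and 331 CPM for controls and to 861, 596 and 228 CPM for knockouts, higher in the knockout of pairs 1 and 2 and lower in that of pair 3. Control replicates 2 and 3 had 2118 and 2440 Xist counts and the other 4 libraries 3 to 5, so only control replicate 1 is a male control. Numbered pairs 2 and 3 thus differ in sex as well as in genotype. Leukocyte markers, 10 genes, summed to 150, 35.5 and 23.8 CPM for controls and to 107, 23.0 and 77.0 CPM for knockouts. That sum was lower in the knockout of pairs 1 and 2 and higher in that of pair 3. Stromal and endothelial markers, 8 genes, summed to between 32.0 and 140 CPM in control and between 37.7 and 154 CPM in knockout. Both sums were highest in replicate 1 of each group. In bulk samples like these, fewer cells of a type and less RNA per cell cannot be told apart.

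A p53 site in DNA is built from a pair of 10-base elements, and the consensus of such an element (the p53 decamer, its own reverse complement, so that both strands are searched at once) was looked for in RefSeq promoter windows of build GRCm38.p6. A window holds the 250 bases before and 50 after a start site. Of the 10 genes, 8 had windows, 11 in all, and Zmat3 and Trp53inp1 were not searched. The decamer occurred in 7 of the 11 windows, belonging to 6 genes, and in 8.36% of the 32851 windows of all genes. Only exact matches to the consensus were counted. A pair of exact decamers at most 13 bases apart occurred in the window of the more upstream Cdkn1a start, and in 0.0731% of all windows. The stretches are shown because p53 acts through such elements at its targets, and the capitals mark the decamers, read 5′ to 3′ on the gene's strand.
Cdkn1a, chr17:29090896-29090947, plus strand: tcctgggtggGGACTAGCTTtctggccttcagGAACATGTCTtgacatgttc
Ccng1, chr11:40755452-40755481, minus strand: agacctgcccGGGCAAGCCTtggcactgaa
Mdm2, chr10:117710925-117710954, minus strand: agtcggatagGAACTTGCCTagcgaccatt
Bax, chr7:45467080-45467109, minus strand: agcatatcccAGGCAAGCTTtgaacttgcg
Aen, chr7:78895927-78895956, plus strand: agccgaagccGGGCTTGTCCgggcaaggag
Sesn1, chr10:41887256-41887285, plus strand: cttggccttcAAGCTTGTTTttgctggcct
The first Cdkn1a decamer begins 73 bases before its start site and lies 12 bases from the second. Near matches stay in lower case. The 10 bases directly after the second Cdkn1a decamer differ from the consensus only at the opening base. Those directly before the Ccng1 decamer differ from it only at an inner base. The marked Cdkn1a pair is thus the pair of exact matches, and other genes may hold pairs that were not counted. The decamer begins 185 bases before the start in Ccng1, 186 in Mdm2, 201 in Bax and 173 in Sesn1. In Aen the same decamer falls in the windows of both start sites, 121 bases before one and 10 bases inside the transcript of the other. No decamer was found in the windows of Eda2r and Phlda3, which says only that these letters are absent from those windows. The matches are descriptions of sequence, and p53 binding was not measured.

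Levels were set in order per kilobase of annotated exon, so that genes of different length can be compared. In control, Ccng1 stood highest at 9.96 CPM per kilobase ± 0.397 (SD, n = 3), above 93.3% of tested genes, and its libraries did not overlap those of any other member. Sesn1 (3.85 ± 0.831), Trp53inp1 (2.90 ± 1.23), Mdm2 (2.45 ± 0.122), Bax (2.39 ± 0.269), Cdkn1a (2.22 ± 1.88) and Aen (1.27 ± 0.174) followed, and each of these overlapped the next in the order. Below a gap came Phlda3 (0.517 ± 0.175) and Zmat3 (0.478 ± 0.127), which overlapped each other. Eda2r was lowest at 0.108 CPM per kilobase ± 0.0451, above only 7.12% of tested genes. The 3 members with the lowest control levels were those with the largest fitted differences. In knockout the order per kilobase began with Ccng1 (9.14 ± 1.39), Trp53inp1 (4.85 ± 2.49) and Sesn1 (4.56 ± 2.66), whose libraries overlapped from each to the next, and ended again with Phlda3 (1.16 ± 0.183), Zmat3 (1.06 ± 0.127) and Eda2r (0.384 ± 0.198). Zmat3 then stood above 49.6% of tested genes, against 30% in control.

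**Figure D1:**
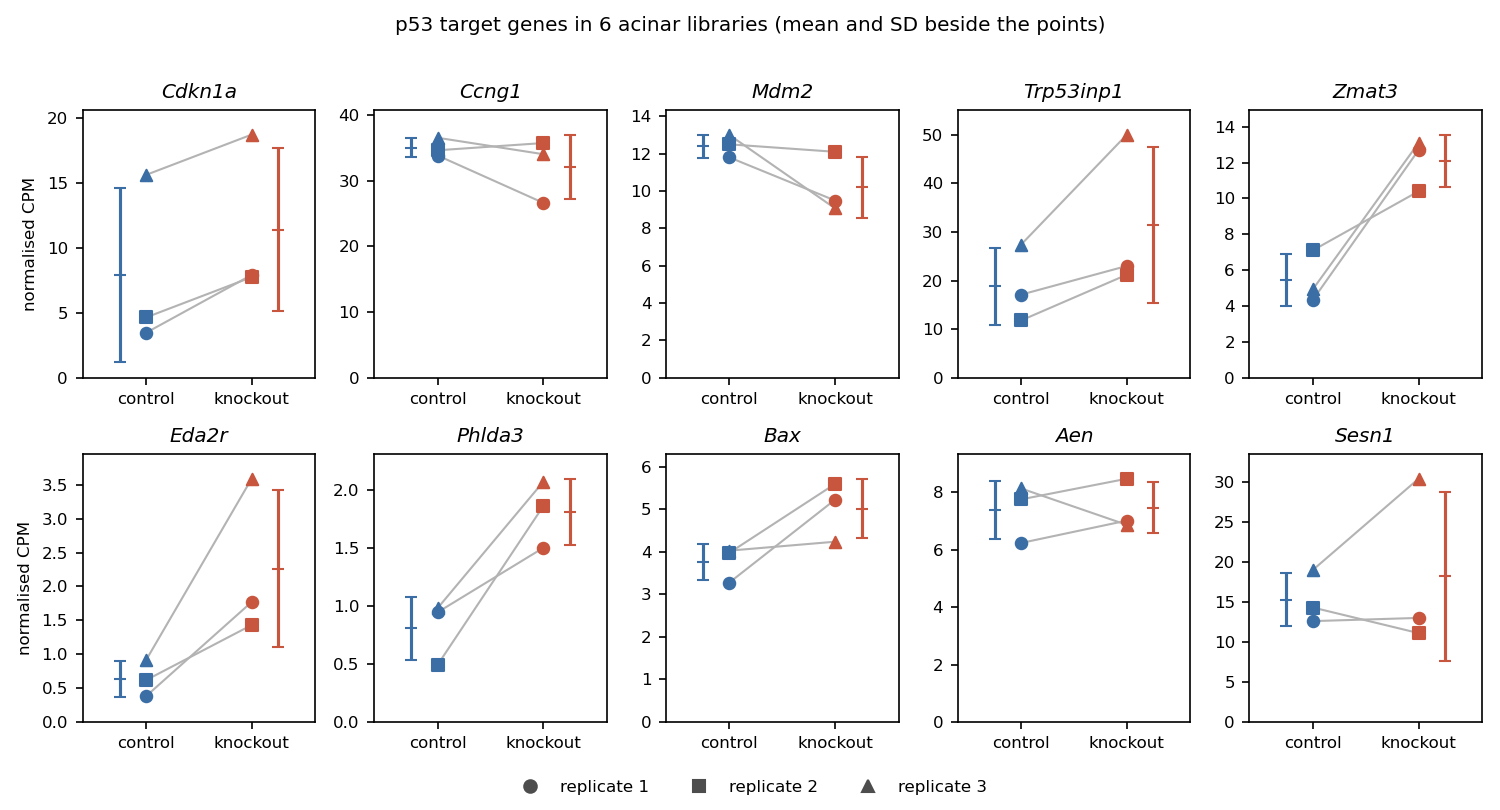
Normalised CPM (vertical axis, starting at 0) of each of the 10 genes in control and knockout libraries, with a marker shape for each replicate number, a grey line joining libraries of the same number, and the mean and SD of 3 libraries beside the points. The 4 genes whose groups do not overlap are Zmat3, Eda2r, Phlda3 and Bax, and in Cdkn1a, Trp53inp1 and Sesn1 the triangles of replicate 3 stand above the other libraries of their group.

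Cell cycle arrest is the role of Cdkn1a (ENSMUSG00000023067), which encodes p21, an inhibitor of cyclin-dependent kinases and the best-known p53 target. In replicate order 1 to 3 it reached 3.46, 4.64 and 15.6 CPM in the controls and 7.91, 7.74 and 18.7 CPM in the knockouts. Replicate 3 was the highest library of both groups, and control replicate 3 lay above knockout replicates 1 and 2, so the groups overlap. Within numbered pairs the knockout was higher in 3 of 3, by 2.28, 1.67 and 1.20 times. The log2 fold change was 0.54 (SE 0.72, adjusted p 0.792) in the edgeR test without the block and 0.70 (SE 0.18, adjusted p 0.0460) with it. The blocked call was lost without pair 1 (adjusted p 0.186) and without pair 2 (0.304) and kept without pair 3 (0.00499). The unblocked log2 fold change was -0.02 without knockout replicate 3, 0.16 without control replicate 1, 0.27 without control replicate 2 and 1.5 without control replicate 3. In males alone it was 1.74 (adjusted p 0.561 in the edgeR test). An antisense gene model overlaps Cdkn1a in the GRCm38 annotation, and same-strand models overlap Bax and Sesn1. Because strands were counted together, reads from a stretch shared by Cdkn1a and its antisense partner cannot be assigned by strand. Whether such reads were counted to Cdkn1a or set aside as ambiguous is not known here.

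Ccng1 and Mdm2 act in the loop that restrains p53. Ccng1 (ENSMUSG00000020326), encoding cyclin G1, which brings a phosphatase to MDM2, stood at 33.8, 34.6 and 36.5 CPM in the controls and at 26.6, 35.7 and 34 CPM in the knockouts. The groups overlapped, and the log2 fold change was -0.12 (SE 0.15, adjusted p 0.748 in the edgeR test). Mdm2 (ENSMUSG00000020184), encoding the ligase that degrades p53, stood at 11.8, 12.5 and 13 CPM in the controls and at 9.49, 12.1 and 9.07 CPM in the knockouts. Only knockout replicate 2 reached the control range, and Mdm2 was the only member lower in the knockout of all 3 pairs, as were 20.7% of all tested genes. Its log2 fold change was -0.29 (SE 0.15, adjusted p 0.373 in the edgeR test, 0.253 with the block). The sign of both genes depends on the scale. With library totals, which raise the median of all genes from 0.02 to 0.43, Mdm2 was at 0.13 and Ccng1 at 0.29, both under that median.

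Trp53inp1 (ENSMUSG00000028211), on chromosome 4, encodes a stress-induced nuclear protein that enhances p53 activity and takes part in autophagy. It stood at 17.1, 11.8 and 27.4 CPM in the controls and at 23.0, 21.2 and 50 CPM in the knockouts. Control replicate 3 lay above knockout replicates 1 and 2, and knockout replicate 3 stood above every other library. The knockout was higher in each pair, by 1.34, 1.8 and 1.82 times. The log2 fold change was 0.74 (SE 0.46, adjusted p 0.493) without the block and 0.71 (SE 0.14, adjusted p 0.0149) with it in the edgeR test. Without pair 2 the blocked adjusted p was 0.234, and without pairs 1 and 3 in turn it was 0.0259 and 0.0261. The unblocked value moved to 0.23 without knockout replicate 3 and to 1.12 without control replicate 3, and was 0.89 in males alone.

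Zmat3 (ENSMUSG00000027663), on chromosome 3, encodes a zinc-finger protein that binds RNA and is counted among the tumour-suppressive p53 targets. It stood at 138, 173 and 136 counts in the controls and at 473, 365 and 490 counts in the knockouts. These are 4.35, 7.11 and 4.94 CPM for the controls, against 12.7, 10.4 and 13.1 CPM for the knockouts. Every knockout library lay above every control library, and the nearest pair, number 2, still differed by 1.47 times. The mean was 5.47 CPM ± 1.45 (SD, n = 3) among controls and 12.1 CPM ± 1.46 among knockouts, a log2 fold change of 1.15 (SE 0.20, adjusted p 0.0412) without the block and 1.17 (SE 0.20, adjusted p 0.00775) with it in the edgeR test. The call was kept without control replicate 1 (adjusted p 0.0404) and lost without control replicate 2 (0.0533), control replicate 3 (0.164), knockout replicate 1 (0.176), knockout replicate 2 (0.0752) and knockout replicate 3 (0.164). With the block it was lost without pair 1 (adjusted p 0.0619). Over these 9 fits the log2 fold change stayed between 0.96 and 1.48. With the male libraries alone, 1 control against 3 knockouts, it was 1.49 (adjusted p 0.123 in the edgeR test).

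Eda2r (ENSMUSG00000034457), on the X chromosome, encodes a receptor of the tumour necrosis factor family that binds ectodysplasin A2. Its counts were low, at 12, 15 and 25 in control and 66, 50 and 134 in knockout. In CPM these are 0.378, 0.616 and 0.909 in control and 1.77, 1.43 and 3.59 in knockout, with no overlap. The ratio of means, 3.57, was the largest among the members, and the pairs differed by 4.68, 2.32 and 3.95 times. The log2 fold change was 1.83 (SE 0.49, adjusted p 0.123) without the block and 1.81 (SE 0.35, adjusted p 0.0127) with it in the edgeR test. The blocked adjusted p was 0.0659 without pair 1, 0.0930 without pair 2 and 0.0305 without pair 3. The male control had the lowest value of all 6 libraries, and among males the log2 fold change was 2.59 (adjusted p 0.396 in the edgeR test).

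Phlda3, Bax and Aen also serve cell death. Phlda3 (ENSMUSG00000041801, chromosome 1), whose product holds back the survival kinase AKT, stood at 0.945, 0.493 and 0.981 CPM in the controls and at 1.5, 1.86 and 2.07 CPM in the knockouts. The groups did not overlap, but counts were between 12 and 77 per library, and the log2 fold change of 1.15 (SE 0.38) missed the threshold (adjusted p 0.189 by edgeR, 0.0809 with the block). Bax (ENSMUSG00000003873), the BCL2 family protein that opens the outer mitochondrial membrane, stood at 3.28, 3.98 and 4.03 CPM in the controls and at 5.23, 5.60 and 4.24 CPM in the knockouts. Knockout replicate 3 lay just above control replicate 3, and the log2 fold change was 0.42 (SE 0.18, adjusted p 0.299 in the edgeR test, 0.242 with the block). Aen (ENSMUSG00000030609), a nuclease of apoptotic cells, stood at 6.24, 7.76 and 8.14 CPM in the controls and at 7.02, 8.48 and 6.87 CPM in the knockouts. Its groups overlapped throughout, with a log2 fold change of 0.02 (SE 0.16, adjusted p 0.973 in the edgeR test).

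Sesn1 (ENSMUSG00000038332) encodes a sestrin, a stress protein that restrains the growth kinase complex mTORC1. It stood at 12.6, 14.3 and 19.0 CPM in the controls and at 13, 11.1 and 30.4 CPM in the knockouts. Knockout replicate 3 was the highest library, while knockout replicates 1 and 2 lay within or below the control range. The log2 fold change was 0.25 (SE 0.41, adjusted p 0.838 in the edgeR test, 0.735 with the block), and without knockout replicate 3 it was -0.34.

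**Figure D2:**
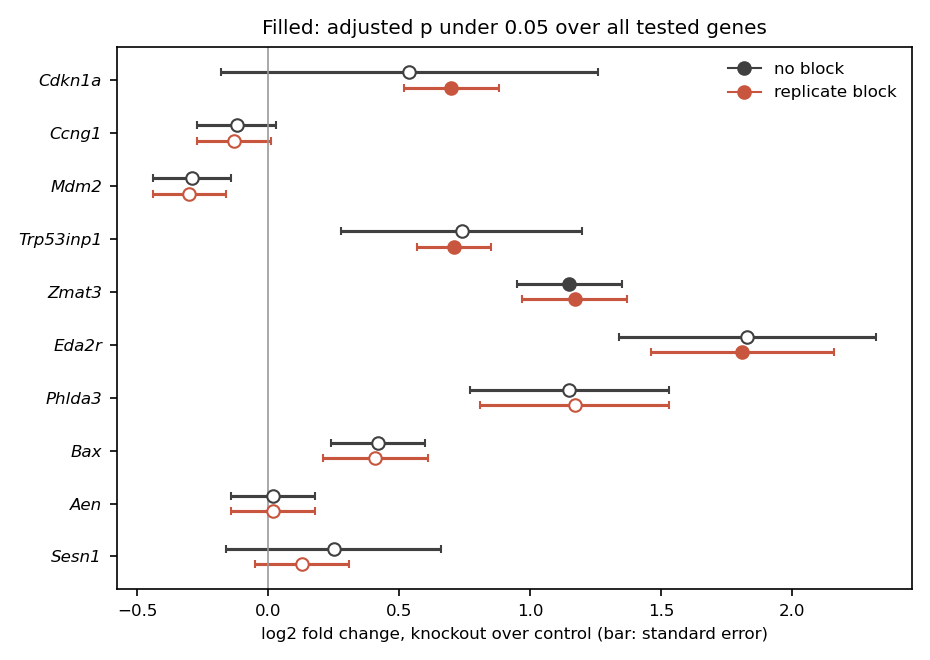
Log2 fold change of knockout over control (horizontal axis) with its standard error for each gene, without the block in dark grey and with the replicate block in red, filled where the adjusted p over all tested genes is under 0.05. The block narrows the error of Cdkn1a from 0.72 to 0.18 and of Trp53inp1 from 0.46 to 0.14, while it leaves that of Zmat3 at 0.20.

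Counted over the members, 8 of 10 had a positive log2 fold change without the block (7 with DESeq2's size factors, 10 with library totals). Their median was 0.48, against a median of 0.02 over all tested genes. Of all 13115 tested genes 6866 were positive and 6249 negative, the background for the counts of higher and lower genes in the lists below. The knockout lay above the control in every numbered pair for 6 members (Cdkn1a, Zmat3, Eda2r, Trp53inp1, Phlda3 and Bax), as it did for 24.2% of all tested genes. The groups did not overlap, with knockout higher, for 4 members (Zmat3, Eda2r, Phlda3 and Bax), as for 12.0% of all tested genes. At an unadjusted p under 0.05 there were 3 members without the block (Zmat3, Eda2r and Phlda3) and 16.7% of all tested genes, and with the block 5 (Cdkn1a and Trp53inp1 in addition) and 22.4% of all tested genes. The members were chosen with earlier results of these libraries known, so these counts describe the set and carry no test.

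Part of the spread followed the replicate number. Replicate 3 was the highest library of both groups in 5 members, Cdkn1a, Eda2r, Trp53inp1, Phlda3 and Sesn1, and in 12.2% of all tested genes. The highest control library exceeded the lowest by 4.49 times in Cdkn1a, 2.40 in Eda2r and 2.33 in Trp53inp1, but by only 1.1 in Mdm2 and 1.08 in Ccng1. In knockout the same ratio was 2.73 in Sesn1, 2.52 in Eda2r, 2.41 in Cdkn1a and 2.36 in Trp53inp1, against 1.26 in Zmat3. Zmat3 thus varied little among the knockouts where Cdkn1a and Trp53inp1 varied widely. Genes induced by tissue dissociation, 16 immediate-early and heat-shock genes, also differed by replicate, with sums over replicates 1 to 3 of 781, 127 and 648 CPM for controls and of 697, 186 and 1020 CPM for knockouts. Both groups had their lowest sum in replicate 2. The sum was highest in replicate 1 among controls and in replicate 3 among knockouts, and its part in the target values was not tested.

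**Figure D3:**
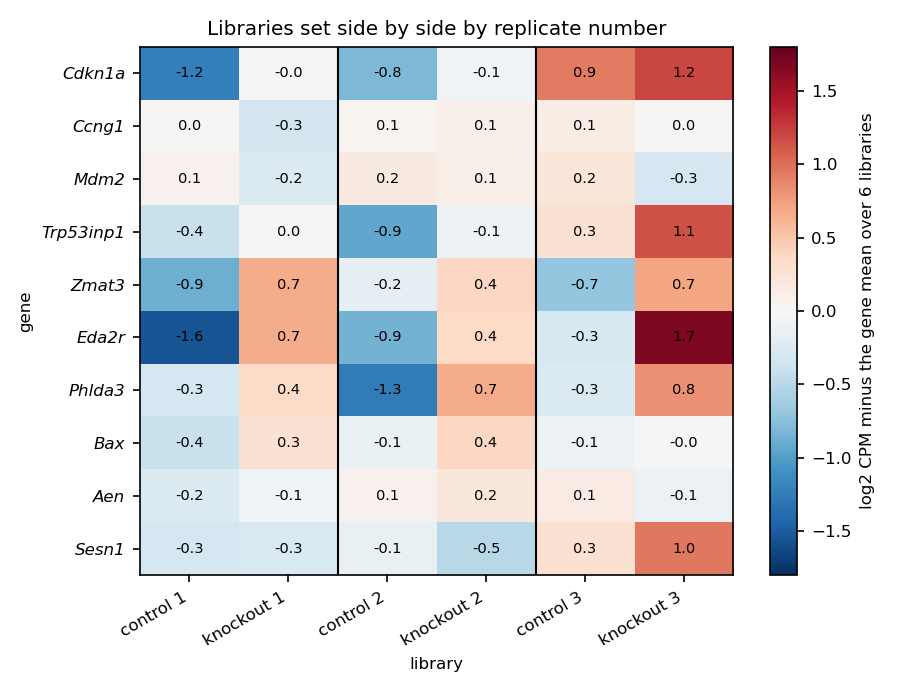
Log2 CPM of each gene (rows) in each library (columns, same-numbered libraries side by side) minus the mean of that gene over the 6 libraries, in blue where lower and red where higher. Zmat3 is blue in all 3 controls and red in all 3 knockouts, while Cdkn1a is red in control 3 and knockout 3 and in no other library.

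The mean log2 CPM of the 10 genes ran over replicates 1 to 3 as 2.36, 2.48 and 2.93 for controls and as 2.96, 3.01 and 3.47 for knockouts. The protein-coding genes most like this mean over the 6 libraries were Furin (Pearson r 0.995), Wdr11 (0.991), Csnk1g1 (0.990), Ppp3ca (0.988) and Lgr4 (0.987), out of 12102 compared. All of these points share the same 6 libraries, and 46 of the 12102 genes reached an r of 0.95. None of the 5 was called in the edgeR test, with log2 fold changes from 0.24 to 0.40 and adjusted p from 0.230 to 0.427.

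Other p53 targets, a list of 34 genes, held no call in either fit. Of the 29 tested, 18 were higher and 11 lower, with a median log2 fold change of 0.12. At an unadjusted p under 0.05 in edgeR's test, 3 were higher and 2 lower, beside 1108 higher and 1085 lower of all 13115 tested genes. Bbc3, which encodes the death activator PUMA, stood at 1.89, 3.00 and 4.4 CPM in the controls and at 4.37, 3.97 and 6.17 CPM in the knockouts (log2 fold change 0.65, SE 0.32, adjusted p 0.35, and 0.0897 with the block in the edgeR test). Pmaip1, encoding the related NOXA, gave 29, 1 and 0 counts in the controls, against 12, 6 and 5 in the knockouts and was too low to test. Btg2, an antiproliferative gene that is also an immediate-early gene, averaged 86.4 CPM ± 46.8 (SD, n = 3) among controls and 87.0 CPM ± 55.2 among knockouts. Perp, a membrane protein of p53-driven death and of desmosomes, averaged 27.7 CPM ± 5.66 and 24.5 CPM ± 1.53, and Sesn2, the sestrin next to Sesn1 in the family, 3.30 CPM ± 1.18 and 4.08 CPM ± 1.01. These 3 were not called in the edgeR test, with adjusted p from 0.666 to 0.996.

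No gene that controls p53 was called without the block. Trp53 itself stood at 5.10, 3.33 and 2.11 CPM in the controls and at 4.45, 3.60 and 4.48 CPM in the knockouts, a log2 fold change of 0.25 (SE 0.30, adjusted p 0.756 in the edgeR test). Control replicate 1 was the highest library and control replicate 3 the lowest, so the groups overlap. Mdm4, the partner of MDM2 that blocks p53's activation domain, averaged 19.4 CPM ± 4.65 (SD, n = 3) among controls and 21.9 CPM ± 2.33 among knockouts. Usp7, the deubiquitinase of MDM2 and p53, averaged 27.5 CPM in both groups, with an SD of 2.37 in control and 1.53 in knockout. Cdkn2a, the gene of ARF, gave 1, 2 and 0 counts in the controls, against 1, 1 and 0 in the knockouts. No library exceeded the floor of 3 counts, so a difference was not detectable at this depth. Of the 26 genes of this list, 23 were tested, 15 higher and 8 lower with a median log2 fold change of 0.11. With the block 1 was called, Trp53bp1, a DNA break sensor that binds p53, at 4.75 CPM ± 0.879 in control and 7.62 CPM ± 0.821 in knockout (log2 fold change 0.69, SE 0.18, adjusted p 0.0453 in the blocked edgeR test). That call was lost without each pair in turn (adjusted p 0.0659, 0.291 and 0.162 without pairs 1, 2 and 3).

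**Figure D4:**
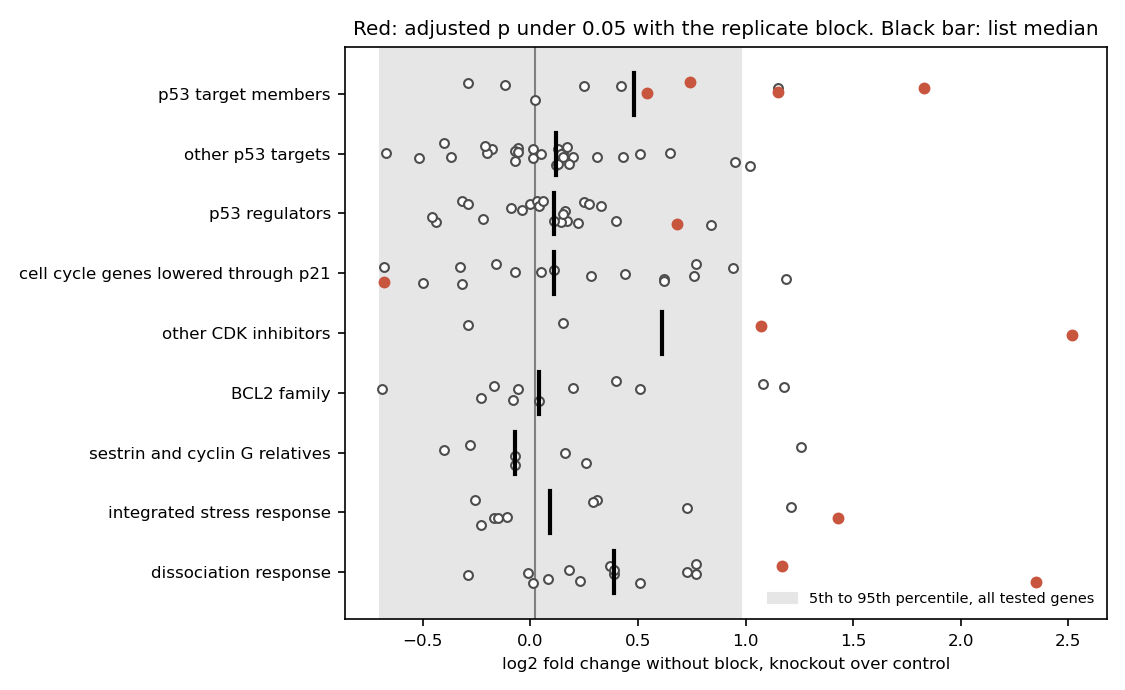
Log2 fold change without the block of every tested gene in 9 lists (rows), in red where the adjusted p with the replicate block is under 0.05, with the list median as a black bar and the 5th to 95th percentile of all tested genes, from -0.70 to 0.98, as a grey band. The p53 target members have a median of 0.48, while other p53 targets (0.12) and p53 regulators (0.11) centre near the median of all tested genes, 0.02. The other CDK inhibitors, with 4 genes tested, have a higher median (0.61), and the dissociation response one of 0.39. The remaining lists have medians from -0.07 to 0.11.

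Genes that p21 lowers in dividing cells held no call without the block. Of 23 cell cycle genes 17 were tested, 10 higher and 7 lower, with a median log2 fold change of 0.11. Mki67, the proliferation marker, stood at 4.54, 0.370 and 0.981 CPM in the controls and at 2.63, 0.171 and 1.39 CPM in the knockouts, highest in replicate 1 of each group. Mcm2, a subunit of the replicative helicase, was lower in every pair, at 6.04 CPM ± 1.21 (SD, n = 3) among controls and 3.77 CPM ± 0.536 among knockouts. It was called with the block (log2 fold change -0.67, SE 0.18, adjusted p 0.0473 in the blocked edgeR test) and not without it (adjusted p 0.153), and the blocked call was lost without pair 1 (0.125) and pair 2 (0.338).

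Among 6 other inhibitors of cyclin-dependent kinases, 4 were tested and 2 were called higher with the block. The median log2 fold change of the 4 was 0.61 without the block, above the 0.48 of the p53 target members. Cdkn1c, the p57 relative of p21, gave 6, 3 and 3 counts in the controls, against 32, 19 and 41 in the knockouts (log2 fold change 2.51, SE 0.58, adjusted p 0.0296 in the blocked edgeR test, 0.0755 unblocked), a call lost without each pair in turn (0.0784, 0.197 and 0.0794). Cdkn2c, encoding p18, averaged 1.5 CPM ± 0.371 (SD, n = 3) among controls and 3.16 CPM ± 0.204 among knockouts, with no overlap (log2 fold change 1.08, SE 0.27, adjusted p 0.0380 in the blocked edgeR test, 0.105 unblocked). The Cdkn2c call was lost without pair 1 (0.139) and pair 2 (0.311). Neither is a p53 target of the lists used here. In the BCL2 family no gene of the 11 tested was called in either fit, and the median was 0.04. At an unadjusted p under 0.05 in edgeR's test, 2 were higher and 1 lower, beside 1108 and 1085 of all 13115 tested genes. The 7 relatives of the members (Sesn3, Ccng2, Trp53inp2, Phlda1, Phlda2, Zmat1 and Zmat2) had a median of -0.07 and no call in either fit.

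Stress genes that overlap with the p53 response were counted beside it. Of 10 genes of the integrated stress response, which responds to amino acid shortage and misfolded protein, 5 were higher and 5 lower. Atf5, a transcription factor of that response, rose from 39.2 CPM ± 12.5 (SD, n = 3) to 106 CPM ± 4.39 (log2 fold change 1.43, SE 0.23, adjusted p 0.0265 in the edgeR test). In the GRCm38 annotation Il4i1 and Nup62 overlap Atf5 on the other strand. Strands were counted together, and the part of such reads in the Atf5 counts was not tested. The Atf5 call was lost in males alone (0.0674), with sex as a covariate (0.256), and without control replicate 2 (0.0615), knockout replicate 1 (0.125), knockout replicate 2 (0.0816) or knockout replicate 3 (0.14), and it was kept with the block without each pair in turn. In the dissociation list 13 of 15 tested genes were higher, beside 6866 of all 13115 tested genes. None of the list was called without the block, and Gadd45b and Hspa1b were called higher with it. Gadd45b, a relative of the p53 target Gadd45a, was 2.20, 2.46 and 2.24 times as high in the knockout of pairs 1 to 3 (adjusted p 0.00152 in the blocked edgeR test, 0.525 unblocked), and Hspa1b, an inducible chaperone, gave 18, 1 and 3 counts in the controls, against 64, 31 and 46 in the knockouts. The blocked call of Hspa1b was lost without pair 2 (adjusted p 0.207 in the edgeR test). In the marker lists for other cell types no gene was called without the block. With it 4 leukocyte markers (C1qc, C1qa, Adgre1 and C1qb), the islet gene Pcsk2, the adipocyte gene Fabp4 and the ductal markers Krt7, Spp1 and Epcam were called higher, and Krt19 and Muc1 lower, as were the acinar Cela2a and Ptf1a. Of the 9 leukocyte markers tested, 6 had a positive and 3 a negative log2 fold change without the block. The summed CPM of the leukocyte list was lower in the knockout of pairs 1 and 2. Median log2 fold changes without the block were 0.92 for leukocyte, 0.74 for islet and 0.40 for stromal and endothelial markers. They were 0.06 for ductal and -0.47 for acinar markers. The part of the cell types of these lists in the target values was not tested.

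**Figure D5:**
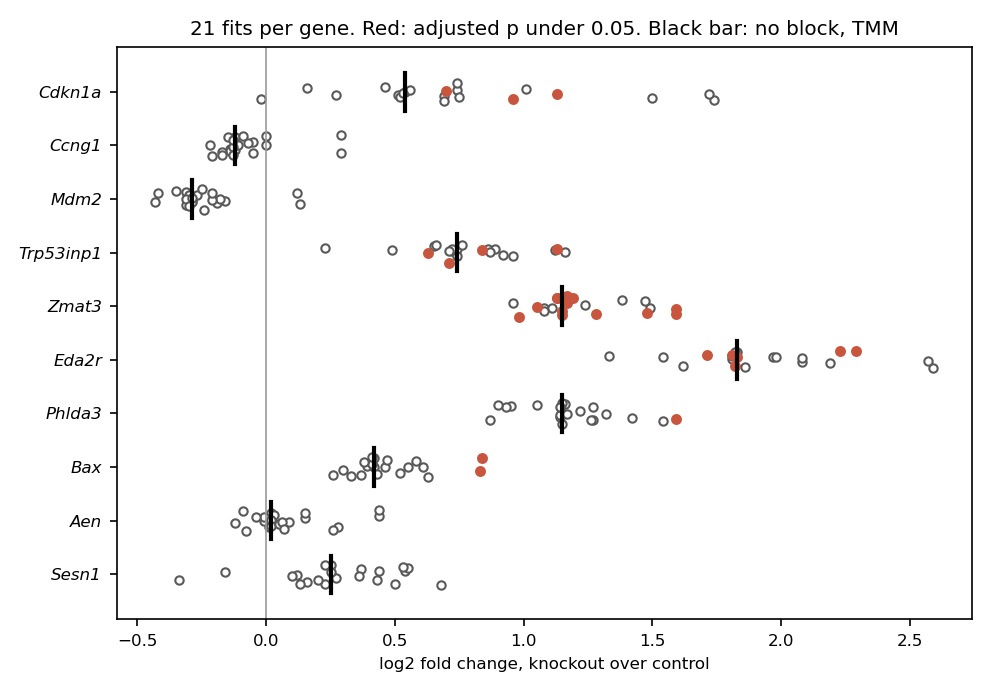
Log2 fold change of each gene (horizontal axis) in 21 fits, which differ in scaling, filter, test, block or libraries, in red where the adjusted p is under 0.05, with the unblocked TMM fit as a black bar. Zmat3 is called in 13 of 21 fits and Eda2r in 6, and Zmat3, Eda2r, Trp53inp1, Phlda3 and Bax stay above 0 in all 21.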

How the data were processed

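Each library was deposited as raw counts per gene, and the submitters' processing notes name STAR 2.7.10a and build GRCm39, without a role or order. The annotation release, and whether 1 count is a read or a read pair, are not given in the sources used here. The counts without regard to strand were used, since 50.1% to 50.2% of stranded counts fell on the forward strand. The 4 rows outside genes stayed out of library sizes and tests: multimapped reads made up 21.6% to 28.4% of all reads, unmapped 9.70% to 13.0%, ambiguous 3.29% to 3.63% and reads outside genes 0.893% to 2.18%. Symbols and exonic lengths came from GENCODE M21 (GRCm38), in which 52133 of 55414 identifiers (94.1%) were found, and promoter sequences from RefSeq (GRCm38.p6). No coordinate was converted between builds.

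The main test was that of edgeR 4.0.16 (R 4.3.3), with filterByExpr, TMM, the robust quasi-likelihood fit and Benjamini-Hochberg adjustment over 13115 genes, with calls at an adjusted p under 0.05. The standard error is the log2 fold change divided by the square root of F. A prior count of 2 was added for log2 CPM. The code was tested on simulated data. Deviations from the group means correlated at 0.630, 0.455 and 0.285 in same-numbered pairs 1 to 3, all over 0.1. The numbers were therefore taken to pair the libraries, as a hint from the data and not from the labels. Control replicate 3 with knockout replicate 2, of unlike number, reached 0.210, so the cut of 0.1 does not separate like from unlike numbers. The other pairs of unlike number ran from -0.496 to -0.130. All pairs of libraries differed by more than sampling noise (chi-square per degree of freedom at least 29.0). Alternatives covered scaling, filters, DESeq2 1.42.0, limma-voom (limma 3.58.1), sex, the block and left-out libraries. The precision is limited by 3 libraries per group, and counts carry no molecular identifiers.

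The members, the gene lists and the tests were chosen with earlier results of these data known. Named genes are the 10 members, Trip12, 10 further genes set by name, list genes called with or without the block, and the 5 genes most like the members' mean. Markers at 0, the relatives listed by name and the 4 uncalled p53 targets of the closing section fall outside that rule, and those 4 were chosen after their values were seen. Chromosome numbers of the genes are as GENCODE M21 gives them, and the promoter windows are as RefSeq gives them.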

Additional observations from a re-analysis of the deposited data

How the results depend on the processing

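The number of genes called, 124, was 593 with DESeq2's Wald test, 850 without a filter, 210 where every library needed 10 counts, 1519 with library totals (1442 higher, 77 lower, against 61 and 63), 18 in males alone, 21 with sex as a covariate, 785 with the replicate block and 3259 with the block and library totals (3124 higher, 135 lower). Leaving out 1 library gave from 20, when it was control replicate 2, to 461, when it was control replicate 1, and leaving out 1 pair under the replicate block gave 100 (pair 2), 396 (pair 1) and 832 (pair 3). Of the members, 1 was called, and 2 with DESeq2 or without a filter, 3 with library totals, 4 with the replicate block, 6 with the block and library totals, and 0 in males alone or with sex as a covariate, fits that rest on 1 male control, assumed in the first to vary like the knockouts. At an unadjusted p under 0.05 those last 2 fits held 2 and 3 members in edgeR's test, against 9.65% and 10.6% of all tested genes. At the adjusted threshold, leaving out 1 library gave 0 to 1 members, against 0.143% to 3.41% of all tested genes. Leaving out 1 pair under the block gave 1 to 4, against 0.729% to 6.11%. The share called over all tested genes was 4.52% with DESeq2 and 3.3% without a filter. It was 11.6% with library totals, 5.99% with the replicate block and 24.8% with the block and library totals. Library totals raised the median of all genes by 0.41, and the part of that shift in the extra calls there was not tested.

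Trip12 missed the threshold with library sizes without the most abundant genes (log2 fold change -0.76), library totals (-0.49), males alone (-1.03), the sex covariate (-1.05) and the block with library totals (-0.46), and ran from -0.98 to -0.82 with 1 library left out and from -1.02 to -0.81 with 1 pair left out. Signs turned as follows, none of them in a called value. With library totals, without and with the block, Mdm2 was at 0.13 and 0.12, Ccng1 at 0.29 and 0.29, Perp at 0.26 and 0.26 and Usp7 at 0.41 and 0.42, and Mki67 was at 0.02 with the block. Without the most abundant genes in the library sizes Ccng1 was at 0.00 and Usp7 at 0.13. With DESeq2, and with its size factors in edgeR, Aen and Btg2 were at -0.01. In males alone and with sex as a covariate, Perp was at 0.22 and 0.20, Btg2 at -0.17 and -0.19, Trp53 at -0.27 and -0.29 and Mdm4 at -0.16 and -0.17, and Usp7 was at 0.01 in males. Usp7 was at 0.02 where every library needed 10 counts and at 0.00 with limma-voom and with the replicate block. With 1 library left out, the range was -0.12 to 0.09 for Aen, -0.63 to 0.38 for Btg2, -0.02 to 1.5 for Cdkn1a, -1.33 to 1.02 for Mki67, -0.34 to 0.50 for Sesn1, -0.02 to 0.60 for Trp53 and -0.07 to 0.06 for Usp7. With 1 pair left out under the block it was -0.08, -0.04 and 0.15 for Aen, -0.14 to 0.27 for Btg2, -0.16 to 0.36 for Sesn1, -0.01 to 0.56 for Sesn2, -0.05 to 0.57 for Trp53 and -0.11 to 0.07 for Usp7. The cause was not tested.

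Counts were lowest for Eda2r and Phlda3, with 12 to 25 and 12 to 30 in the control libraries, and the part of depth in their calls was not tested.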

Other observations

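Among the other p53 targets, 4 tested genes had groups that did not overlap, and they were picked out after their values were seen. Tigar, a regulator of sugar metabolism, averaged 1.06 CPM ± 0.114 (SD, n = 3) among controls and 2.15 CPM ± 0.543 among knockouts (log2 fold change 1.02, SE 0.32, adjusted p 0.169 in edgeR's quasi-likelihood test, 0.0826 with the replicate block). Sfn, the 14-3-3 sigma protein of the G2 arrest, averaged 1.40 CPM ± 0.416 and 2.7 CPM ± 0.717 (adjusted p 0.208, and 0.0611 with the block, in the edgeR test). Polk, a translesion DNA polymerase, averaged 2.43 CPM ± 0.196 and 3.47 CPM ± 0.329 (adjusted p 0.262 in the edgeR test). Rps27l, a ribosomal protein relative, went the other way, from 110 CPM ± 20.7 among controls to 76.8 CPM ± 11.9 in knockout (log2 fold change -0.52, SE 0.19, adjusted p 0.214, and 0.0563 with the block, in the edgeR test). Non-overlapping groups were found in 12.0% of all tested genes with knockout higher and in 10.9% with knockout lower.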
